A study of Mus musculus with 6 samples.

Results

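The genes described here are the small nucleolar RNA (snoRNA) genes, the small Cajal body RNA (scaRNA) genes and the snoRNA host transcripts of forebrain oligodendrocyte precursor cells (OPCs) of Ep400 cko and ctrl mice. They were chosen by symbol and by the mean in the authors' deposited table: C/D box genes (Snord followed by a number), H/ACA box genes (Snora), scaRNA genes (Scarna), host genes (Snhg) and Gas5. The symbol matched 166 of the 48526 rows, of which 77 were listed at a mean of 0, 14 lay above 0 but under the minimum mean of 6.1 normalised reads, and 75 were members. The members were 36 C/D box genes, 19 H/ACA box genes, 4 scaRNA genes and 16 host genes. All 75 were among the 20101 genes to which the table gives an adjusted p, because its tested genes begin at the same mean. The members just inside the minimum were Scarna17 at 6.11, Snord118 at 6.27 and Snord4a at 6.45 normalised reads by that table, and the rows just under it were Snord110 at 4.67, Snora69 at 4.61 and Scarna9 at 4.49. A member's mean runs over both groups, so a gene read in only one group can pass the minimum through that group alone.

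The Ep400 cko group held 3 biological replicates from mice with Cre recombinase driven by the promoter of Cnp, an oligodendroglial gene, a Rosa26 stop-flox YFP reporter and conditional Ep400 alleles. The ctrl group held 3 biological replicates with the same Cre and reporter and no conditional Ep400 allele in the label. Both groups had a mixed 129SvJ/C57Bl/6J background and were taken at postnatal day 6, when YFP-positive cells were sorted by YFP and Hoechst from forebrain freed of meninges. Whether a replicate was 1 animal or a pool is not stated in the sources used here. RNA was sequenced from stranded mRNA libraries. Ep400 encodes the ATPase of a chromatin remodelling complex, and its own gene-level value in the authors' deposited table was 0.01 ± 0.17 (log2 fold change ± SE, adjusted p = 0.97), a count over the whole gene that does not resolve the conditional exons. Fold changes are Ep400 cko over ctrl throughout, on the authors' log2 scale, which draws low and variable genes towards 0, and a gene is said to have risen or fallen where its Benjamini-Hochberg adjusted p over all tested genes, from the authors' DESeq2 comparison, was under 0.05.

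Small nucleolar RNAs guide the enzymes that modify ribosomal RNA. C/D box snoRNAs carry the C and D boxes near their ends and direct methylation of the ribose, with fibrillarin as the enzyme, whereas H/ACA box snoRNAs fold into hairpins followed by the H box and the ACA box and direct pseudouridylation by dyskerin. The scaRNAs do the same for spliceosomal RNAs in Cajal bodies. In mammals most of these RNAs are cut out of introns of a host gene, which is often a gene for a ribosomal protein or a translation factor, or else a long RNA without a known protein, such as Gas5 and the Snhg transcripts. Mature snoRNAs have no poly(A) tail, so libraries of mRNA are not made to hold them, and reads of a snoRNA gene cannot be told apart here from reads of the unspliced or retained host sequence around it.

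Levels and depth were read as follows. The table's means summed to 80407433 normalised reads per library. For genes with a mean under 100, the deposited mean was solved for the whole number of reads in each of the 6 libraries, and the libraries of each group bear the letters a, b and c because they could not be matched to replicate numbers. The size factors ran from 0.967 to 1.122. The ctrl libraries a and b stood apart: 81 and 75 genes had their only read of the whole study in them, against 405, 233 and 243 in the Ep400 cko libraries and 228 in ctrl library c. The cell markers were all present: the 8 OPC markers had means of 15241.7 to 352288 normalised reads by that table, and none of the markers of any list was at 0. Of 8 astrocyte markers 7 rose (median 1.13), of 8 neuron markers 2 rose (median 0.19) and of 5 tested red blood cell markers 4 rose (median 0.98), while 5 of 8 mural, 3 of 8 microglia and 2 of 8 endothelial markers fell (medians -0.93, -0.44 and -0.35) and 1 of 8 OPC markers rose (median -0.37). Fewer cells of a type and less RNA per cell cannot be told apart in these bulk samples.

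The sequences shown first are those of the C/D box genes on which the values below turn, together with Snord104, the C/D box gene with the highest level. Capitals mark the C box (TGATGA, in the first 26 nucleotides) and the D box (CTGA, in the last 20). Snord42a and Snord42b, 68.1% identical, are shown together because they lie in the same host.
Snord53: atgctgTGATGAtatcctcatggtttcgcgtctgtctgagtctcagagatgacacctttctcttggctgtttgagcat
Snord71: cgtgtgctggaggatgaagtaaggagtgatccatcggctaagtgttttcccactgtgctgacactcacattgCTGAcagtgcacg
Snord42b: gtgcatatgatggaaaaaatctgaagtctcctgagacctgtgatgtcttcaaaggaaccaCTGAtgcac
Snord42a: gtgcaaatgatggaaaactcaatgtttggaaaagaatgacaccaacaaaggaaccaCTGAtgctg
Snord104: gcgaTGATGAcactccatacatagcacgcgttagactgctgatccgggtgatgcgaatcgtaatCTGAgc
The genes lie at chr17:71640879-71640956 (plus strand, Snord53), chr8:109839295-109839379 (plus, Snord71), chr11:78183056-78183124 (minus, Snord42b), chr11:78181299-78181363 (minus, Snord42a) and chr11:106500993-106501062 (plus, Snord104), with sequences and positions from GENCODE M21 (GRCm38, the mm10 assembly). The letters of the C box were found in 21 of the 36 C/D box members (58.3%), against 70 of all 99 annotated Snord genes (70.7%), and those of the D box in 35 of 36 (97.2%), against 97 of 99 (98.0%). Both were searched on the gene's own strand only. Snord53 held the C box at position 7 and no CTGA in the window searched, and Snord71 and both Snord42 genes held CTGA alone.

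Of the H/ACA box genes, those shown are Snora28, which rose, Snora78, whose groups did not overlap in the lower direction, and the near-identical pair Snora73a and Snora73b. Capitals mark the H box (ANANNA, between 35% and 65% of the length) and the ACA box (in the last 8 nucleotides).
Snora28: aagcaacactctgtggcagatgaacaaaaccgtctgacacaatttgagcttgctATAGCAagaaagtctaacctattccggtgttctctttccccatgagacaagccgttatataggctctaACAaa
Snora78: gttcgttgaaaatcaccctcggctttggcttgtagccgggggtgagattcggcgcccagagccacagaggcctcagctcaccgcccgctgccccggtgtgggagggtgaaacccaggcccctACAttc
Snora73a: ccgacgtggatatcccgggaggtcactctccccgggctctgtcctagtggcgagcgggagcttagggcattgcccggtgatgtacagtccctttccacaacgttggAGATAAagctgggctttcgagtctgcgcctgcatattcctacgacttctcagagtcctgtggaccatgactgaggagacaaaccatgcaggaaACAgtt
Snora73b: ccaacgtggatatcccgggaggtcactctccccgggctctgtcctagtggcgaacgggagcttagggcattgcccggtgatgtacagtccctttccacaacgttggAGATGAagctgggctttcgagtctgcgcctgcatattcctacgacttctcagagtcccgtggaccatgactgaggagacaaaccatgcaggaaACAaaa
They lie at chr12:111540941-111541067 (plus strand, Snora28), chr17:24719676-24719803 (minus, Snora78), chr4:132352775-132352979 (minus, Snora73a) and chr4:132352322-132352526 (minus, Snora73b), from the same annotation. All 19 H/ACA box members held the ACA letters in the window, against 40 of 42 annotated Snora genes (95.2%), and 18 of 19 (94.7%) held the H box letters, against 39 of 42 (92.9%), with Snora78 the member without them. Snora73a and Snora73b are 96.6% identical over 205 nucleotides, so reads could be split between them and both values are uncertain.

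In the Ep400 cko samples 4 members rose and 2 fell, and the other 69 did not pass. The C/D box gene Snord53, the H/ACA box gene Snora28 and the host transcripts Snhg14 and Snhg20 rose, and the host transcripts Snhg8 and Snhg12 fell. They were 2 of the 59 small RNA members and 4 of the 16 host members. The share called over all 20101 tested genes was 12.2%, with 7.64% higher and 4.61% lower. An unadjusted p under 0.05 in the authors' test was held by 9 of the 75 members and by 5149 of the 20101 tested genes. The small RNA genes and the host genes differed in level, so their background differs too: 6% of the 5547 tested genes with a mean under 100 were called (4.27% higher, 1.73% lower), as were 14.6% of the 14554 genes with a higher mean (8.92% higher, 5.71% lower) and 4.95% of the 364 tested genes whose longest transcript has at most 300 nucleotides (3.57% higher, 1.37% lower). Because the genes were chosen with results of these data known, the counts describe them and are no test of the group. The plot of log2 fold change against level shows where the members lie among all genes.

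**Figure D1:**
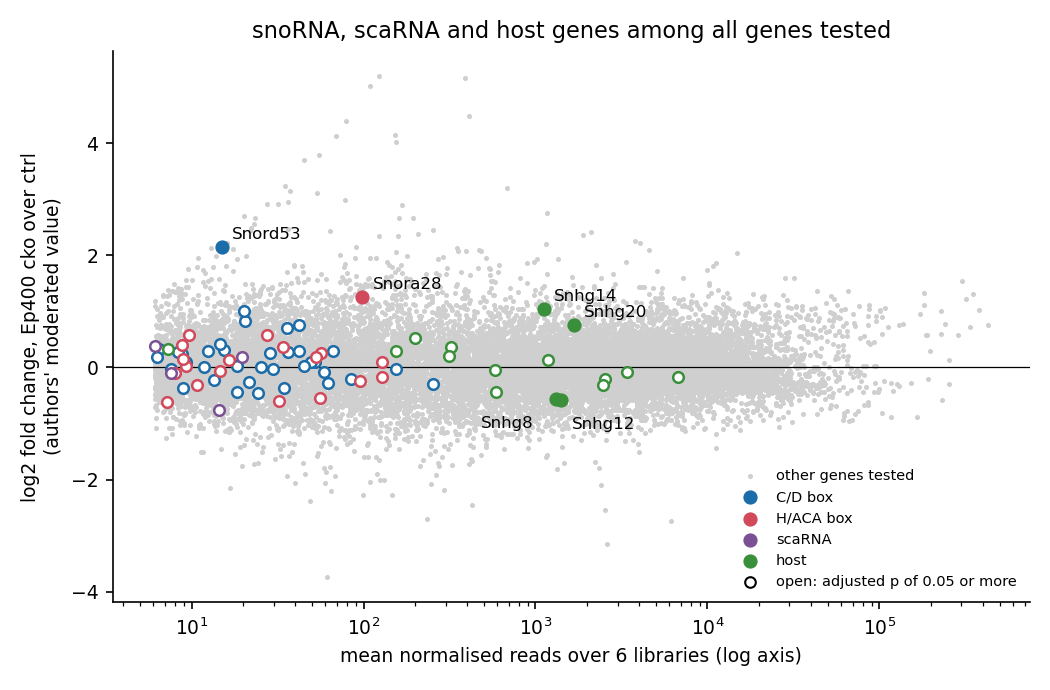
Authors' log2 fold change (Ep400 cko over ctrl, vertical axis) against mean normalised reads over the 6 libraries (horizontal log axis) for the 75 members by class and all other tested genes in grey. Filled points have an adjusted p under 0.05: Snord53 at 2.14, Snora28 at 1.26, Snhg14 at 1.04 and Snhg20 at 0.76 above 0, and Snhg8 at -0.57 and Snhg12 at -0.58 below it.

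The classes lay close to each other and to the middle of all genes. In the authors' deposited table the median log2 fold change was 0.10 for C/D box members, 0.09 for H/ACA box members, 0.04 for scaRNA members and 0.05 for host members, against -0.00 over all tested genes. Of the 36 C/D box members 1 rose, none fell and 35 did not pass, with 23 values above 0 and 13 below, from -0.45 to 2.14. Of the 19 H/ACA box members 1 rose, none fell and 18 did not pass, with 11 above 0 and 8 below, from -0.62 to 1.26. None of the 4 scaRNA members passed (-0.76 to 0.38). Of the 16 host members 2 rose, 2 fell and 12 did not pass, with 8 above 0 and 8 below, from -0.58 to 1.04. The other 305 tested genes of at most 300 nucleotides had a median of 0.14, with 11 higher and 5 lower. The deposited standard errors were larger for the small RNAs, at a median of 0.39 for C/D box and 0.36 for H/ACA box members, against 0.22 for host members and 0.23 over all tested genes.

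Snord53 was read in every Ep400 cko library and in no ctrl library. It had 17, 28 and 43 reads in Ep400 cko libraries a, b and c, against 0, 0 and 0 reads in ctrl libraries a, b and c. The normalised mean was 30.0 ± 13.2 in Ep400 cko and 0 in ctrl (SD, n = 3 each), so that the gene passed the minimum mean through the Ep400 cko libraries alone. With a floor of 3 reads over the ctrl group, which covers counting error only, it was at least 30.8-fold higher in Ep400 cko, or at least 4.95 on the log2 scale, and at least 3.49 when ctrl libraries a and b were left out. The authors' deposited table gave 2.14 ± 0.42 (SE, 95% interval 1.33 to 2.96, adjusted p = 2.8e-05). By limma on the recovered reads of 5453 genes the value was 5.83 ± 1.22 (SE, log2 of normalised reads + 0.5), with an adjusted p of 0.072 that did not pass, and with pseudocounts of 1 and 2 it passed (adjusted p = 0.045 and 0.028). Among the 5453 genes with solved reads, 34 (0.624%) were at 0 in all ctrl libraries and above 0 in every Ep400 cko library.

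Snord53 lies within an intron of Wdr43, which encodes a factor of small ribosomal subunit assembly. Wdr43 itself stood at 0.01 ± 0.13 in the authors' deposited table (SE, 95% interval -0.24 to 0.26, adjusted p = 0.97). Its mean of 4385 normalised reads was too high to be solved for each library. The other C/D box gene of Wdr43, Snord92, was listed at 0.

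Snora28 rose as well, with 153, 186 and 102 reads in Ep400 cko libraries a, b and c, against 19, 51 and 77 reads in ctrl libraries a, b and c. The groups did not overlap, and within ctrl the values were spread over a wider ratio than within Ep400 cko. The normalised mean was 151 ± 43.5 in Ep400 cko and 46.5 ± 24.9 in ctrl (SD, n = 3 each), 3.24-fold higher in Ep400 cko. On the log2 scale this ratio was 1.69, and 1.13 without ctrl libraries a and b. The authors' deposited table gave 1.26 ± 0.36 (SE, adjusted p = 0.0094), while limma on the recovered reads gave 1.82 ± 0.47 with an adjusted p of 0.15 that did not pass. Snora28 lies in its host Eif5, the gene of a translation initiation factor, and overlaps an annotated exon on its strand. Eif5 stood at 0.44 ± 0.20 per the authors' deposited table (adjusted p = 0.14). Reads of Snora28 and of the exon that it overlaps are therefore uncertain.

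**Figure D2:**
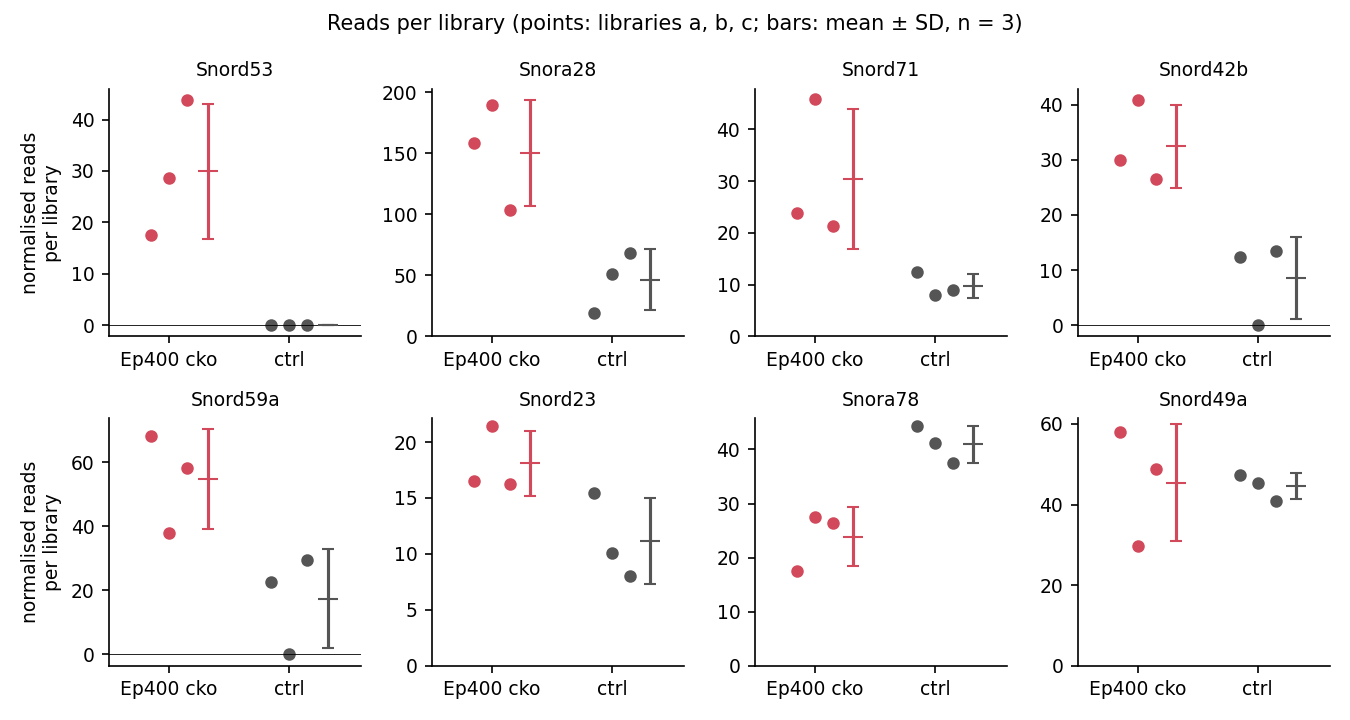
Normalised reads per library (vertical axes, linear from 0) for 8 small RNA genes, with Ep400 cko libraries a, b and c left of ctrl libraries a, b and c and bars for the mean ± SD (n = 3). Snord53 is at 0 in all ctrl libraries, 5 other genes lie higher in Ep400 cko without overlap, Snora78 lies lower, and Snord49a overlaps.

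Counting both genes that rose, reads did not overlap between the groups for 6 of the 55 members with solved reads in the higher direction (10.9%) and for 1 in the lower direction (1.82%). Over all 5453 genes with solved reads the shares were 14% and 8.07%. With 3 against 3 libraries an exact permutation test of a single gene cannot give a p below 0.1. Limma on the recovered reads called no member (0 higher, 0 lower). With so few reads and 3 libraries a group, the lack of calls does not show that the values did not differ. It called 26 of all 5453 genes (0.477%), whereas the authors' test called 5.85% of the 5418 of them that it tested.

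The other 4 genes with higher reads in every Ep400 cko library were C/D box genes that did not pass the authors' test. Snord71, in an intron of the adaptor subunit gene Ap1g1, had 23, 45 and 21 reads in Ep400 cko and 12, 8 and 10 in ctrl, at 1.00 ± 0.41 in the authors' deposited table (SE, adjusted p = 0.083). Snord42b, in the ribosomal protein gene Rpl23a, had 29, 40 and 26 reads in Ep400 cko and 12, 0 and 15 in ctrl, at 0.82 ± 0.41 per the authors' deposited table (adjusted p = 0.19). Snord42b overlaps an annotated exon on its strand, so its reads are uncertain. Snord59a, in the ATP synthase gene Atp5b, had 66, 37 and 57 reads in Ep400 cko and 22, 0 and 33 in ctrl, at 0.71 ± 0.41 per the authors' deposited table (adjusted p = 0.27). The library without a read was ctrl library b for both Snord42b and Snord59a. Snord23, in the ribosome assembly gene Nop53, had 16, 21 and 16 reads in Ep400 cko and 15, 10 and 9 in ctrl, a normalised mean of 18.1 ± 2.9 in Ep400 cko and 11.2 ± 3.84 in ctrl (SD, n = 3 each). The log2 ratio of the group means, over all libraries and without ctrl libraries a and b, was 1.63 and 1.77 for Snord71, 1.92 and 1.28 for Snord42b, 1.66 and 0.89 for Snord59a, and 0.69 and 1.17 for Snord23. The hosts stood at 0.22 for Ap1g1, -0.28 for Rpl23a, -0.35 for Atp5b and -0.23 for Nop53 in the authors' deposited table, and none of them passed.

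The H/ACA box gene Snora78 was the member lower in every Ep400 cko library. It had 17, 27 and 26 reads in Ep400 cko libraries a, b and c, against 43, 41 and 42 reads in ctrl libraries a, b and c, a normalised mean of 23.9 ± 5.47 in Ep400 cko and 41.0 ± 3.43 in ctrl (SD, n = 3 each). The authors' deposited table gave -0.59 ± 0.36 (SE, 95% interval -1.29 to 0.11, adjusted p = 0.30). The log2 ratio of the group means was -0.78, and -0.65 without ctrl libraries a and b. Snora78 lies within the span of the host transcript Snhg9, which stood at 0.30 ± 0.27 per the authors' deposited table (adjusted p = 0.53) and whose exons overlap those of Rps2 on the opposite strand.

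Among the most abundant C/D box genes none passed. Levels between genes are given per length, as normalised reads per kilobase of the longest annotated transcript. Snord104, which lies between genes, had the highest of the small RNA levels at 3629 per kilobase and a log2 fold change of -0.29 ± 0.27 per the authors' deposited table (adjusted p = 0.53). Snord100, in the ribosomal protein gene Rps12 and overlapping an annotated exon on its strand, had 2079 per kilobase. It stood at -0.03 ± 0.28 in the authors' deposited table. Snord83b in Rpl3 had 71, 70 and 85 reads in Ep400 cko and 65, 136 and 80 in ctrl, at -0.20 ± 0.33 in the authors' deposited table. Snord32a in Rpl13a had 59, 48 and 115 reads in Ep400 cko and 33, 49 and 99 in ctrl, at 0.29 ± 0.38 in the authors' deposited table. The reads of Ep400 cko and ctrl overlapped for both Snord83b and Snord32a. Snord49a, whose ctrl reads were even, had 56, 29 and 48 in Ep400 cko and 46, 45 and 46 in ctrl, and its 95% interval in the authors' deposited table, -0.66 to 0.70, spans changes in either direction. The lowest C/D box value was that of Snord73a, -0.45 ± 0.41 in the authors' deposited table, with 18, 24 and 10 reads in Ep400 cko and 24, 12 and 63 in ctrl. Snord118, whose RNA acts in processing of the large subunit ribosomal RNA rather than in its modification, had 12, 9 and 2 reads in Ep400 cko and 11, 0 and 3 in ctrl. Snord4a had 14, 12 and 3 reads in Ep400 cko and 0, 0 and 10 in ctrl. Both genes lie so near the minimum that a few reads decide their values.

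None of the other H/ACA box genes with a high mean passed. Snora31, in the Tpt1 gene of the translationally controlled tumour protein, had 981 normalised reads per kilobase and stood at -0.16 ± 0.36 per the authors' deposited table (adjusted p = 0.83). Snora68 had 728 per kilobase and a log2 fold change of -0.25 ± 0.33 in the authors' deposited table, and its mean was met by several sets of reads, so that no reads per library are given. Snora73b, whose RNA is known for a part in early cleavage of the ribosomal precursor RNA, had 627 per kilobase and stood at 0.09 ± 0.27 in the authors' deposited table, beside -0.32 ± 0.42 for its near-copy Snora73a at 52.5 per kilobase. Both lie within Rcc1 and within the overlapping host transcript Snhg3. The lowest H/ACA box value was that of Snora5c, -0.62 ± 0.36 per the authors' deposited table (adjusted p = 0.28), with 0, 0 and 5 reads in Ep400 cko and 10, 23 and 5 in ctrl. It lies in Tbrg4, overlaps an annotated exon on its strand and has a near-identical copy, so its reads are uncertain.

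Further small RNA genes with wide differences in reads, picked after their values were seen, all overlapped between the groups. Snord7 had 53, 43 and 83 reads in Ep400 cko and 11, 8 and 58 in ctrl, at 0.76 ± 0.41 per the authors' deposited table (adjusted p = 0.23). Snora34, in Kansl2, had 16, 5 and 28 reads in Ep400 cko and 0, 0 and 9 in ctrl. For both genes ctrl library c lay within the Ep400 cko range and ctrl libraries a and b lay below it. Snora47, in Zbed3, had 26, 39 and 38 reads in Ep400 cko and 27, 17 and 16 in ctrl, at 0.58 ± 0.38 per the authors' deposited table (adjusted p = 0.34). Snora57, between genes and with a near-identical copy, had 35, 32 and 58 reads in Ep400 cko and 53, 64 and 100 in ctrl, at -0.55 ± 0.34 per the authors' deposited table (adjusted p = 0.31). Snord13, a gene with no host, had 4, 0 and 12 reads in Ep400 cko and 14, 5 and 20 in ctrl. All small RNA members that lie between genes, 7 in all, had a median of -0.29. Of these 3 lay above 0 and 4 below (-0.76 to 0.38), and none passed. The median was 0.06 for the 40 in introns (-0.59 to 2.14) and 0.15 for the 12 overlapping exons (-0.62 to 1.26). The difference by position was not tested.

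All 4 scaRNA members were low, and none passed. Scarna2, which lies between genes and guides a spliceosomal RNA, had 6, 2 and 13 reads in Ep400 cko and 12, 24 and 32 in ctrl, and stood at -0.76 ± 0.42 per the authors' deposited table (adjusted p = 0.24), the lowest value of all members. Only the highest Ep400 cko library exceeded the lowest ctrl library. Scarna6, in the autophagy gene Atg16l1, had 20, 26 and 18 reads in Ep400 cko and 23, 7 and 25 in ctrl. Scarna13, in Snhg10, had 6, 9 and 4 reads in Ep400 cko and 0, 23 and 3 in ctrl. Scarna17 had 9, 5 and 12 reads in Ep400 cko and 0, 2 and 9 in ctrl. The values of both groups overlapped for every scaRNA member.

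Host transcripts gave the more precise values and moved in both directions. Snhg14, the long transcript that carries the Snord116 genes and reaches across the imprinted gene Ube3a on the opposite strand, rose by 1.04 ± 0.26 in the authors' deposited table (SE, adjusted p = 0.0019). It lies at chr7:59307924-59975759 on the minus strand. With trends over transcript length and GC content removed, its value was 0.62 and no longer passed (adjusted p = 0.11). Ube3a itself stood at -0.02 ± 0.17 per the authors' deposited table (adjusted p = 0.95), and none of the 6 imprinted neighbours on chromosome 7, a list added after the values were seen, passed (median -0.09), with Snrpn at -0.13 and Ndn at -0.16. All 19 rows of the Snord116, Snord64 and Snord107 genes were listed at 0. The stretch of Snhg14 across Ube3a is known to be transcribed mainly in neurons. Of the neuron markers Slc17a7 rose by 1.96 ± 0.37 and Syt1 by 0.78 ± 0.26 in the authors' deposited table, whereas the other 6 of the 8 did not pass, at 0.03 to 0.38, with Map2, the most abundant, at 0.21 ± 0.12 and Snap25 at 0.38 ± 0.24. The part of the neuron markers in the Snhg14 value was not tested, and reads were not told apart from those of Ube3a and of Gm38393, which overlaps Snhg14 on the same strand.

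Snhg20, a host-type transcript with no small RNA row assigned to it, rose by 0.76 ± 0.21 in the authors' deposited table (SE, 95% interval 0.34 to 1.17, adjusted p = 0.0074) at a level of 775 normalised reads per kilobase. It lies at chr11:117076008-117078955 on the plus strand. Snhg8 fell by 0.57 ± 0.16 per the authors' deposited table (adjusted p = 0.0084). It lies at chr3:123507552-123508404 on the minus strand, had 1700 normalised reads per kilobase, and holds 1 H/ACA box gene, which was listed at 0. Snhg12 fell by 0.58 ± 0.19 per the authors' deposited table (adjusted p = 0.028). It lies at chr4:132308623-132311024 on the plus strand with 921 per kilobase, and of its 5 small RNA genes 4 were listed at 0 and 1 lay under the minimum. No gene of the types compared, which leave out small RNA genes among others, had an exon overlapping those of Snhg20, Snhg8 or Snhg12. Overlap with introns of other genes was not looked at. The small RNA genes of Snhg8 and Snhg12 overlap annotated exons on their strand, so which gene such reads were counted for is uncertain. The means of Snhg20, Snhg8 and Snhg12 were too high for reads per library to be solved. The spread between libraries therefore stands only in the deposited error.

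**Figure D3:**
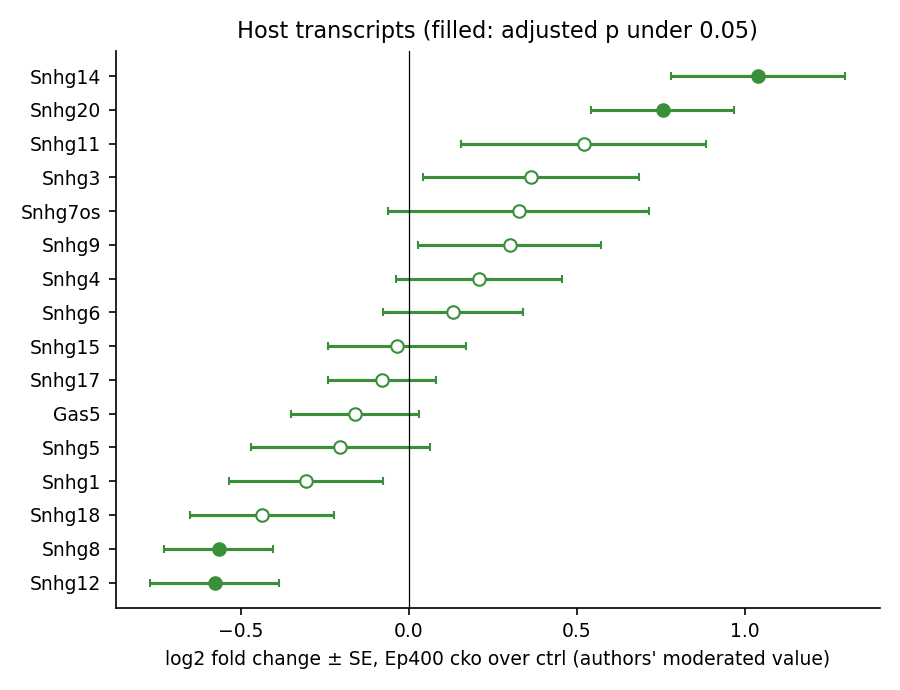
Authors' log2 fold change ± SE (Ep400 cko over ctrl, horizontal axis) of the 16 host transcripts, ordered by value, with filled points at an adjusted p under 0.05. The values run from 1.04 for Snhg14 to -0.58 for Snhg12, and 12 of the 16 did not pass.

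The host transcripts with the highest means did not pass. Gas5, known to accumulate in cells that stop growing and to be degraded when translated, had 2649 normalised reads per kilobase, more per length than any other host member with an annotated length, and stood at -0.16 ± 0.19 in the authors' deposited table (95% interval -0.54 to 0.21, adjusted p = 0.65). Snhg17 stood at -0.08 ± 0.16, Snhg5 at -0.20 ± 0.27 and Snhg1 at -0.31 ± 0.23 per the authors' deposited table (adjusted p = 0.81, 0.68 and 0.42). Other hosts lay between -0.44 for Snhg18 and 0.52 for Snhg11 in the authors' deposited table. Snhg7os, which the symbol rule takes in and which is named as the opposite strand transcript of Snhg7, was the one host with solved reads, 6, 15 and 8 in Ep400 cko and 7, 0 and 8 in ctrl. Snhg7 itself had a mean of 1.00 normalised read and was not tested. Inside these transcripts only small RNA genes matched by symbol were counted, so those under other names are left out. The genes counted were mostly listed at 0, as were all those of Gas5 (4), Snhg5 (2), Snhg1 (1), Snhg15 (1) and Snhg14 (17). Members lay in Snhg18 (Snord123), Snhg6 (Snord87) and Snhg9 (Snora78).

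Read and unread small RNA genes were compared by their position against other genes. Of the 77 small RNA genes listed at 0, 52 (67.5%) overlapped an annotated exon of another gene on their strand, against 12 of the 59 small RNA members (20.3%), of which 40 lay within an intron and 7 between genes. The exons were those of GENCODE M21, whereas the deposited table is keyed by Ensembl release 85, so they may differ from those used for counting. How reads that fall on more than one gene were counted is not stated in the sources used here. A mean of 0 for such a gene does not show that no read lay there.

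The small RNA genes were then set beside the genes that hold them. Of the 59 small RNA members 52 lay in a host, by the rule of the highest mean among the same-strand genes whose span holds them, and 51 of these pairs, with 40 hosts, had both genes tested. The reads of a small RNA gene were a median of 0.264% of its host's normalised reads (0.0188% to 23.6%). Both genes lay on the same side of 0 in 20 pairs and on opposite sides in 31, of which 26 had the small RNA above 0 and the host below. Among the hosts 1 rose and 3 fell. Rps3a1, a ribosomal protein gene, rose by 0.78 ± 0.17 per the authors' deposited table (adjusted p = 0.00032), and its snoRNA Snord73a stood at -0.45. Of those that fell, Rpl17 and Rpl23 dropped by 0.52 and 0.39 per the authors' deposited table (adjusted p = 0.014 and 0.039), beside -0.37 for Snord58b and -0.07 for Snora21. The pairs whose snoRNA rose, Snord53 in Wdr43 and Snora28 in Eif5, had hosts that did not pass. The difference within a pair was not tested, since the table gives no covariance between genes.

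**Figure D4:**
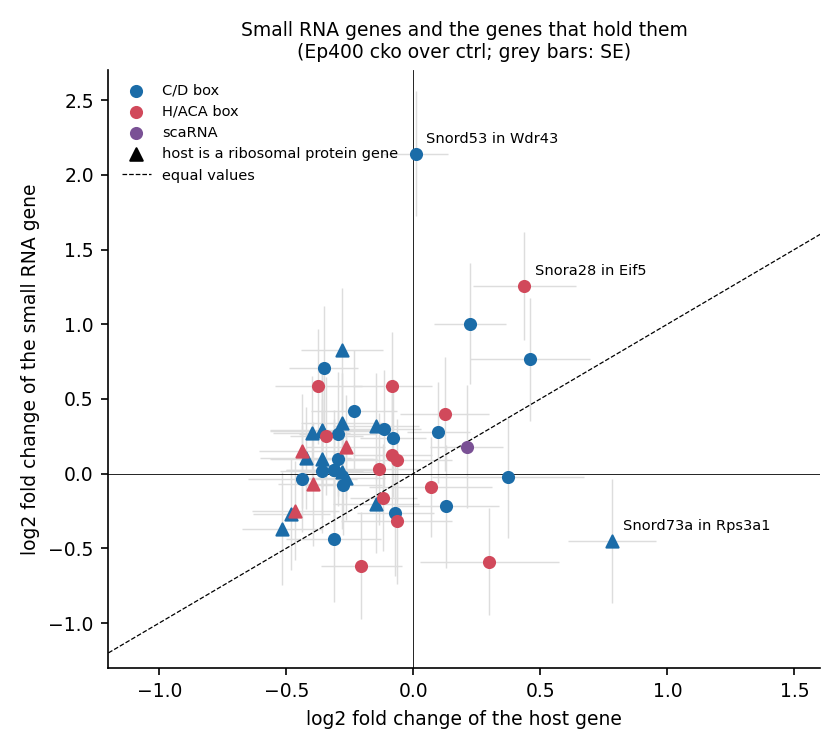
Authors' log2 fold change of the small RNA gene (vertical axis) against that of its host (horizontal axis) for the 51 pairs, Ep400 cko over ctrl, with grey bars for the SE and triangles for hosts that are ribosomal protein genes. Of the pairs 26 lie in the upper left quadrant, and Snord53 stands above the rest at a host value of 0.01.

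Ribosomal protein genes made up 12 of the tested hosts. By the authors' deposited table, 11 of these 12 lay below 0, with a median of -0.40, whereas 11 of the 18 small RNA genes in them lay above 0, with a median of 0.10. For some of the hosts that held several small RNA genes, which then share a transcript, the values are given together. In Rpl23a (host at -0.28), the authors' deposited table gave 0.34 for Snord4a, 0.01 for Snord42a and 0.82 for Snord42b. In Rpl13a (host at -0.36) it gave 0.29 for Snord32a, 0.10 for Snord34 and 0.29 for Snord35a. In 2410006H16Rik (host at -0.31) the authors' deposited table gave 0.02 for Snord49a, 0.03 for Snord49b and -0.44 for Snord65. The standard errors of these genes, 0.34 to 0.42 in the authors' deposited table, are as large as most of the differences between them. The ribosomal protein genes Rpl3 and Rps12 also held several, with values on both sides of 0. They were 0.32 for Snord43 and -0.20 for Snord83b in Rpl3, and 0.18 for Snora33 and -0.03 for Snord100 in Rps12. Snord42a, the partner of Snord42b in Rpl23a, had 7, 24 and 4 reads in Ep400 cko and 0, 26 and 10 in ctrl, which overlap, and it also overlaps an exon on the opposite strand.

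Summed over genes with solved reads, small RNA levels were 1595, 1632 and 1565 normalised reads in Ep400 cko libraries a, b and c, against 1121, 1221 and 1594 in ctrl libraries a, b and c, over 54 genes. Ctrl library c lay within the range of the Ep400 cko libraries, and ctrl libraries a and b lay below it. The other 5398 genes with solved reads summed to 167260, 169460 and 149964 in Ep400 cko libraries a, b and c. In ctrl libraries a, b and c they summed to 164133, 144320 and 147028. For those genes ctrl library a lay within the Ep400 cko range, and ctrl libraries b and c lay below it. The 34 C/D box genes summed to 1042 ± 12.4 in Ep400 cko and 869 ± 142 in ctrl, the 16 H/ACA box genes to 511 ± 43.6 in Ep400 cko and 392 ± 103 in ctrl, and the 4 scaRNA genes to 44.4 ± 3.02 in Ep400 cko and 51.3 ± 13.5 in ctrl (SD, n = 3 each).

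Zeros were most frequent in ctrl libraries a and b, for members and for other genes. Of the 55 members with solved reads, 1, 3 and 1 had no read in Ep400 cko libraries a, b and c (1.82%, 5.45% and 1.82%), against 12, 13 and 2 in ctrl libraries a, b and c (21.8%, 23.6% and 3.64%). Of the other 5398 genes with solved reads, 44, 76 and 78 had none in the Ep400 cko libraries (0.815%, 1.41% and 1.44%), against 648, 916 and 137 in the ctrl libraries (up to 17.0% in library b). At least 1 Ep400 cko library was without a read for 4 of the 55 members (7.27%), and at least 1 ctrl library for 21 (38.2%). For the other 5398 genes the shares were 3.11% in Ep400 cko and 25.7% in ctrl. The reads of Snord53 belong to the members' count, with its 0 reads in ctrl library c among the 2 such members there. The spread within a group was wider in ctrl, with a median coefficient of variation over members of 0.40 in Ep400 cko and 0.74 in ctrl, beside 0.37 in Ep400 cko and 0.59 in ctrl for the other genes. The part of ctrl libraries a and b in the higher small RNA values of Ep400 cko was not tested beyond the values given without them.

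**Figure D5:**
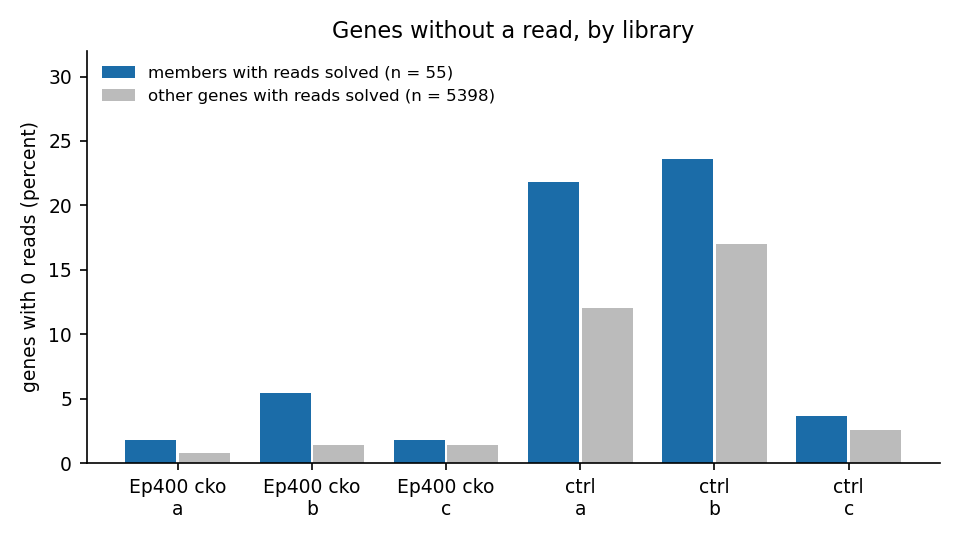
Share of genes without a read (percent, vertical axis from 0) in Ep400 cko libraries a, b and c and ctrl libraries a, b and c, for the 55 members with solved reads and the other 5398 genes. Ctrl libraries a and b stand at 21.8% and 23.6% for members, and 648 and 916 of the other genes were at 0 in them, above all other libraries.

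The proteins that form snoRNA particles were compared last, from lists of the core, the assembly factors and the enzymes of maturation and decay. Of the 4 tested H/ACA core genes 2 fell, Nhp2 by 0.54 ± 0.17 and Nop10 by 0.56 ± 0.19 in the authors' deposited table (SE, adjusted p = 0.019 and 0.034). Both encode small proteins of the H/ACA particle, and all 4 core genes lay below 0, with a median of -0.44. None of the 4 C/D core genes passed, at a median of -0.23 and values of -0.41 to -0.19, with Nop56, a scaffold protein of the C/D particle, at -0.19 ± 0.18 per the authors' deposited table (adjusted p = 0.55). Of the 14 assembly factors 13 were found and none passed, at a median of -0.08, with Nolc1, a chaperone of snoRNA particles, at -0.35 ± 0.16 per the authors' deposited table (adjusted p = 0.15). Of the 8 maturation and decay genes Smg1 rose, and the other 7 did not pass, at a median of 0.01. Smg1, the kinase of nonsense-mediated decay, the pathway that degrades Gas5 and other host transcripts, rose by 0.66 ± 0.16 per the authors' deposited table (adjusted p = 0.0010).

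Other small structured RNAs, likewise mostly without a poly(A) tail, were set beside the members. The list is set apart by symbol only and is not free of snoRNA genes, with Rnu73b at 0.31 ± 0.37 (SE) among those tested. Of its 22 rows 11 were listed at 0 and 8 were tested. The rows at 0 were those of Rn7s1, Rnu3a, Rnu3b1, Rnu3b2, Rnu3b3 and Rnu3b4, with each Rnu3 gene listed more than once. Of the 8 tested, Rpph1 fell, none rose and 7 did not pass, with a median of -0.29, against 0.10 for the 59 small RNA members. Rpph1, the RNA of ribonuclease P, fell by 1.24 ± 0.38 in the authors' deposited table (SE, adjusted p = 0.015). The difference between these groups of genes was not tested.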

How the data were processed

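RNA-seq of sorted forebrain OPCs was compared between 3 Ep400 cko and 3 ctrl samples. Reads were processed with STAR 2.5.1, HTSeq and DESeq2 on mm10, per the submitters' processing notes, which give no order. Whether counting used strand is not stated in the sources used here, so overlapping and antisense genes are uncertain. The authors deposited 1 table of their comparison, keyed by Ensembl release 85 per the file headers, which has 0 columns of values per sample. For each gene the authors deposited its signal as the mean normalised read count of the 6 libraries. The header calls it raw, yet of the means above 0 none is a multiple of 1/6 within 1e-06, as means of unscaled counts would be. Both the log2 fold change and the error given with it were moderated towards 0 by the authors. The score deposited by the authors is a Wald statistic, from which the deposited p-value and the p-value after Benjamini-Hochberg adjustment derive. That the fold is Ep400 cko over ctrl rests on the name of the file. A count model had been planned for the case of values per sample, and the authors' comparison was used.

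Whole reads per library were solved for genes with a mean under 100: each mean adds up whole reads, weighted by what 1 read is worth in each of the 6 libraries, and genes with 1 read in all gave these weights. Of 5581 means 5453 were met by 1 set of reads and 128 by several (no reads are given for those). A library was given its group by the direction of the fold changes of genes read in it alone, and for 3758 of 3758 genes with a log2 fold change beyond 0.2 the reads had the table's sign. Limma 3.58.1 (R 4.3.3, trend, log2 of normalised reads + 0.5) was run on the 5453 genes. Both steps were tested on simulated data. A 3 against 3 permutation cannot give a p under 0.1. The p-values of the authors' Wald test and of limma set the group difference against a spread estimated from these samples. Whether a sample was 1 animal or a pool is not stated.

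Of the table's rows 48058 matched GENCODE M21 (GRCm38) by identifier, and 1 member, Snhg4, did not. The host of a small RNA is the same-strand gene with the highest mean whose span holds it. Members and lists were chosen with earlier results of these data known. Named genes are those past an adjusted p of 0.05, in each class the 4 with the highest mean and the largest and smallest fold change, those beside the minimum mean, those whose reads do not overlap, and their hosts, with the passing or most abundant gene of each list. Snord42a, Snord49a, those picked for wide differences and the other genes given by host or as markers, Ube3a, Snrpn and Ndn among them, were named after their values were seen. Some host genes are not reported here by name. Alternatives were other filters, thresholds and centring, removal of length and GC trends, other pseudocounts and scaling, and leaving out libraries.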

Additional observations from a re-analysis of the deposited data

How the results depend on the processing

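With the authors' test, 3 to 5 members were higher and 2 lower under 5 alternatives: no filter on low genes, a mean of at least 50, an adjusted p under 0.1, recentring, and length and GC trends removed. Snhg14 lost its call with the trends removed (0.62, adjusted p = 0.11), and the other 5 called genes kept theirs wherever they were in the set tested, Snord53 falling under a mean of 50. Class medians moved within 0.02 to 0.10 (C/D box), 0.09 to 0.16 (H/ACA box), 0.04 to 0.04 (scaRNA) and -0.04 to 0.05 (host) without near-identical copies, with a minimum mean of 20 or recentred. No scaRNA gene has a mean of 20. By limma on recovered reads no member passed, against 2 of the same 55 by the authors' test, also with reads scaled by their own sum, except that the count of higher members was 1 with pseudocounts of 1 and 2, in both cases Snord53 (4.86 and 3.91). Leaving out each library in turn gave 0 calls, as all libraries did, which says nothing about stability, and values of 1.29 to 2.18 for Snora28. Snord53, at 0 in ctrl, had 5.52 to 6.16 without an Ep400 cko library and 5.83 without any ctrl library, values that the pseudocount sets. An alternative added after seeing the data, without ctrl libraries a and b, gave a log2 ratio of 1.13 for Snora28 and a lower bound of 3.49 for Snord53, against 1.69 and 4.95 with all libraries. No paired analysis was possible because the table has no values per sample and the recovered libraries carry no replicate numbers. Low reads limit most small RNA members, whose median deposited error was 0.38 on the log2 scale.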
